A study of Mus musculus with 4 samples.

Results

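The lactate and pyruvate fate genes described here were 10 genes that decide where the end product of glycolysis goes: Ldha, Ldhb, Slc16a1, Slc16a3, Mpc1, Mpc2, Pdk1, Pdk2, Pdk4 and Pdp2. They were taken by name from a table of read counts for 21552 mouse genes, in which each of the 10 symbols matched 1 Ensembl identifier. The counts came from polyadenylated RNA of heart tissue of C57BL/6 mice. The infarcted group was 2 mice whose left anterior descending coronary artery had been tied off permanently, sampled at day 7 in myocardium remote from the infarct. The uninjured group was 2 mice whose sample names carry the same day and whose tissue source is also given as remote area. No transgene or drug is named for either group, and the labels give no age, no sex and no sham operation. A permanent ligation leaves the occluded territory without reperfusion, and each library is bulk tissue in which cell types are mixed.

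Pyruvate, made from glucose by glycolysis or from lactate taken up from blood, has a pair of main fates in a cardiomyocyte. Lactate dehydrogenase interconverts it with lactate, and proton-coupled monocarboxylate transporters carry lactate across the plasma membrane. The mitochondrial pyruvate carrier brings pyruvate across the inner membrane to the pyruvate dehydrogenase complex, which kinases switch off and phosphatases switch on by phosphorylation and its removal. The healthy heart burns lactate as a fuel and is known for the B (heart) subunit of lactate dehydrogenase, whereas strongly glycolytic tissues use the A (muscle) subunit and the export-type transporter MCT4.

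The start-site windows of 4 of the genes are shown because they stand for the range of outcomes below: Slc16a3, the 1 gene of the 10 called higher, Ldha, whose groups overlapped, and Ldhb and Pdp2, among the lower ones. Each window holds the 250 bases before and the 50 after a transcription start, 5′ to 3′ on the gene's strand, from RefSeq on GRCm38.p6. Capitals mark ACGTG or GCGTG, the core letters of the hypoxia response element, and AGGTCA, the nuclear receptor element, on either strand. The windows are chr11:120948817-120949116 on the plus strand for Slc16a3, chr7:46845554-46845853 on the plus strand for the first of the Ldha starts, chr6:142507908-142508207 on the minus strand for Ldhb and chr8:104591222-104591521 on the plus strand for Pdp2.
Slc16a3: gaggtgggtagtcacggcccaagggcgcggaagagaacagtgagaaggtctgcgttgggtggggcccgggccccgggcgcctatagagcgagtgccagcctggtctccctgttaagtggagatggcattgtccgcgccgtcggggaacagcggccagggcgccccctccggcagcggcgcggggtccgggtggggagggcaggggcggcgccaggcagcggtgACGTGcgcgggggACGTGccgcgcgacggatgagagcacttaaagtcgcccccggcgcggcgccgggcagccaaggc
Ldha: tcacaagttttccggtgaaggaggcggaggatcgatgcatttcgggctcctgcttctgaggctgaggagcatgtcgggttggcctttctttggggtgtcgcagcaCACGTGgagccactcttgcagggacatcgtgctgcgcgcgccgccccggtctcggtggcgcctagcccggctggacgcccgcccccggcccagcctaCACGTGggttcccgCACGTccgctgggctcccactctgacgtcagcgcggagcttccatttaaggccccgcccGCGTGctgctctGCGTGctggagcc
Ldhb: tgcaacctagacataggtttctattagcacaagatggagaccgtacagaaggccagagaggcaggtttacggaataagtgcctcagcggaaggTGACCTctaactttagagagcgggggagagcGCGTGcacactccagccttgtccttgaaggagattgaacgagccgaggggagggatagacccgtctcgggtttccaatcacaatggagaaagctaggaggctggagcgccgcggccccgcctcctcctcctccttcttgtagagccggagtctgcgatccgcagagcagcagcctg
Pdp2: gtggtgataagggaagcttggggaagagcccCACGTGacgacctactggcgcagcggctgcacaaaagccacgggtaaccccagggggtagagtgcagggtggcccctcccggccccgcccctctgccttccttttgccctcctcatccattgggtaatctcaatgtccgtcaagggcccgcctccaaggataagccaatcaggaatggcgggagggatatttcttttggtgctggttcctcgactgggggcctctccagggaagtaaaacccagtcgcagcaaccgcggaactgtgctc

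ACGTG stood in a window of 5 of the 10 genes (Ldha, Slc16a1, Slc16a3, Pdk2 and Pdp2), against 21.8% of 27025 mouse genes and 19.6% of their 32851 start windows. A gene can have several windows, so the shares of genes are the ones to set beside counts of genes. Its palindromic form CACGTG, the E-box, which contains ACGTG on both strands, stood in Ldha, Slc16a1, Pdk2 and Pdp2, against 8.09% of genes and 7.15% of windows. GCGTG stood in 7 of the 10 genes, against 35.2% of genes and 32.4% of windows. AGGTCA stood in Ldhb and Mpc1, against 18.1% of genes and 16.3% of windows. The longer forms TCAAGGTCA, the element of estrogen-related receptors, and the direct repeat of AGGTCA with a spacer of 1 base, bound by PPAR and RXR, stood in 0 of the 10 genes, against 0.466% and 0.048% of genes and 0.423% and 0.04% of windows. These are matches of letters. The genes that carried ACGTG included Slc16a3, which was higher, Pdk2 and Pdp2, which were lower, and Ldha and Slc16a1, which were not called.

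Library totals ranged from 35715115 to 46232326 counts in the infarcted group and from 53944859 to 70885393 in the uninjured group, and 36.7% to 48.4% of counts came from genes of the mitochondrial genome. Cardiomyocyte markers were abundant in all libraries, as the label of heart tissue asks, and their summed level was 46900 and 41250 CPM (counts scaled to library size) in the infarcted libraries and 74310 and 90390 CPM in the uninjured ones. Of 12 such markers, 8 were called lower, beside 14.6% of all genes tested. All 12 had a log2 fold change below 0, with a median of -0.99. Fibroblast markers summed to 7547 and 6860 CPM in the infarcted libraries, against 1664 and 2063 CPM in the uninjured ones (8 of 12 called higher). Macrophage markers summed to 543 and 583.5 CPM against 200.9 and 166.1 CPM (12 of 12 called higher). Over all genes tested 18.3% were called higher. Endothelial markers summed to 1147 and 933 CPM in infarcted and 943 and 911 CPM in uninjured libraries, with 0 of 8 called. Atrial markers summed to 295 and 2009 CPM in infarcted libraries, against 88.8 and 49.5 CPM in uninjured ones. Of the 5 atrial markers, 3 passed the filter on low counts and 0 were called in edgeR, whereas DESeq2 called 3 higher. The median log2 fold change of those tested in edgeR was 7.61 without infarcted replicate 1 and -0.55 without infarcted replicate 2. Skeletal muscle markers summed to 2.0 and 8.61 CPM in infarcted libraries, against 0.522 and 0.653 CPM in uninjured ones. Of the 5 listed, 1 passed the filter on low counts and was called higher. With no low-count filter edgeR called 0 of the 5, with a median log2 fold change of -0.39 and 3 below 0. None of these markers was at 0 in every library, and the part of the mixture of cells in the results below was not tested. In whole tissue, fewer cells of a type and less RNA per cell cannot be told apart.

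All 10 genes passed the filter on low counts. Pairs of values below give replicate 1 and then replicate 2 of a group, in CPM on library sizes scaled by the trimmed mean of M-values (TMM), and calls are those of edgeR's quasi-likelihood test, with a Benjamini-Hochberg adjusted p under 0.05 over all 13905 genes tested. By that rule 1 of the 10 was higher in infarcted hearts (Slc16a3) and 5 were lower (Ldhb, Mpc1, Mpc2, Pdk2 and Pdp2), with a median log2 fold change of -0.59. The same rule called 33.0% of all genes tested, 18.3% higher and 14.6% lower, and the median of all genes was 0.02. The libraries of the groups did not overlap for 7 of the 10 genes, against 70.0% of all genes tested, so non-overlap alone is not a result about these genes. Without uninjured replicate 2, edgeR called 1 of the 10 genes, Slc16a3, with 6 of them under an unadjusted p of 0.05, and 110 of all genes tested. DESeq2 without that library called 6 of the 10, 1 higher and 5 lower.

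**Figure D1:**
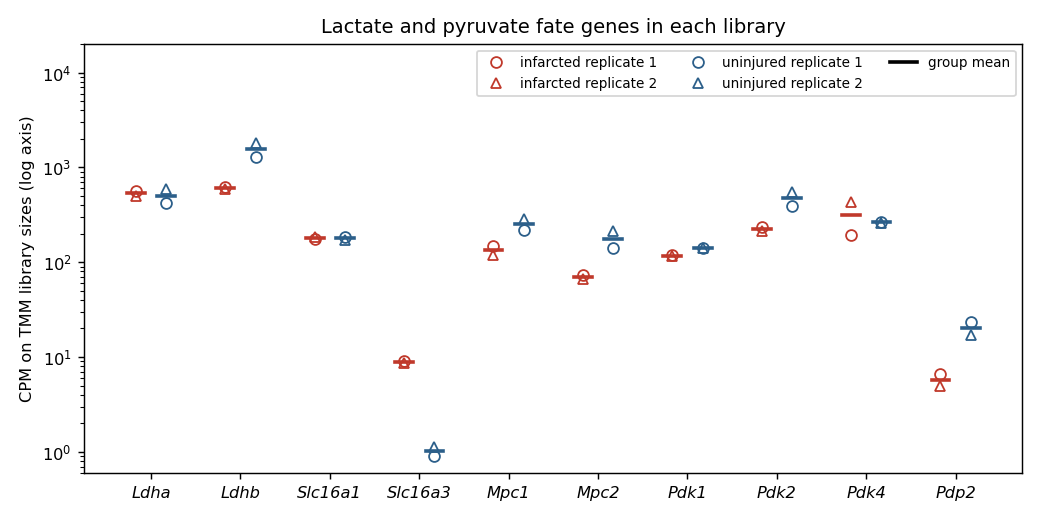
CPM of the 10 genes (log axis) in each library, infarcted left of uninjured for each gene, with circles for replicate 1, triangles for replicate 2 and bars for the group means of 2 mice. Slc16a3 lies near 9 CPM in both infarcted libraries and near 1 CPM in both uninjured ones, while the infarcted libraries of Pdk4 lie on either side of the uninjured ones.

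Of the lactate dehydrogenase subunits, the enzyme between pyruvate and lactate, Ldhb fell and Ldha was not called. Ldhb, which encodes the heart subunit (chr6:142490249-142507957, minus strand, GRCm38), had 625 and 589 CPM in infarcted libraries, against 1298 and 1820 CPM in uninjured ones. Both infarcted libraries lay below both uninjured ones and close to each other, and the uninjured ones were the more spread pair. The means were 607 ± 25.1 CPM in infarcted and 1559 ± 369 CPM in uninjured hearts (SD, n = 2 each), a log2 fold change of -1.36 ± 0.25 (SE; 2.57-fold lower; edgeR adjusted p = 0.00142). Only 2.29% of all genes tested had a lower log2 fold change. When uninjured replicate 2 was left out, the value was -1.10 and the edgeR adjusted p 0.055.

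Ldha, which encodes the muscle subunit (chr7:46841475-46855627, plus strand), had 566 and 503 CPM in infarcted libraries and 417 and 587 CPM in uninjured ones. The infarcted values lay between the uninjured ones. The log2 fold change was 0.09 ± 0.24, with an edgeR adjusted p of 0.799, and its sign depended on the setting: it ranged from -0.17 to 0.44 over 17 alternatives, 13 of which kept the sign. Ldha, a textbook target of hypoxia-inducible factor, was called in 0 of the 17.

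The ratio of the A to the B subunit transcript was higher in both infarcted libraries. The ratio of Ldha to Ldhb CPM was 0.906 and 0.854 in infarcted libraries, against 0.321 and 0.323 in uninjured ones. The replicates of each group were close together and the groups far apart. The log2 ratio differed by 1.45 (2.73-fold), and by 1.41 to 1.49 when each library was left out in turn. An exact two-sided permutation test of 2 against 2 libraries gave p = 0.3333, the smallest that this design allows, and 0.3333 adjusted over the 7 ratios computed, so it cannot pass any threshold. Per kilobase of the longest annotated transcript, Ldha made up 39.4% and 38.0% of the Ldha and Ldhb sum in infarcted libraries and 18.7% and 18.8% in uninjured ones. The sum itself was 791 and 729 CPM per kb in infarcted libraries, against 1225 and 1719 CPM per kb in uninjured ones.

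These levels depend on how reads shared with gene copies were counted, which the labels do not say. Of the windows of 50 nt along the longest transcript, 27.01% in Ldhb, 16.6% in Ldha and 29.6% in Mpc1 also occur in an annotated transcript of another gene, and 1.43% or fewer in the other 7 genes. Gapdh, a highly expressed glycolytic enzyme with many processed copies, was counted at 28 and 22 reads in infarcted libraries and 34 and 38 reads in uninjured ones. Of its windows 27.8% are shared, along a longest transcript of 3289 nt, while its principal transcript has 1420 nt. Both lengths are 1304 nt for Ldhb, and 961 and 958 nt for Mpc1. The shares of Gapdh and of these genes are therefore not on a like basis. Per kilobase of unshared windows the Ldha share was 36.1% and 34.7% in infarcted libraries, against 16.6% and 16.7% in uninjured ones. On the summed length of all exons it was 30.1% and 28.8% in infarcted libraries, against 13.2% and 13.3% in uninjured ones.

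**Figure D2:**
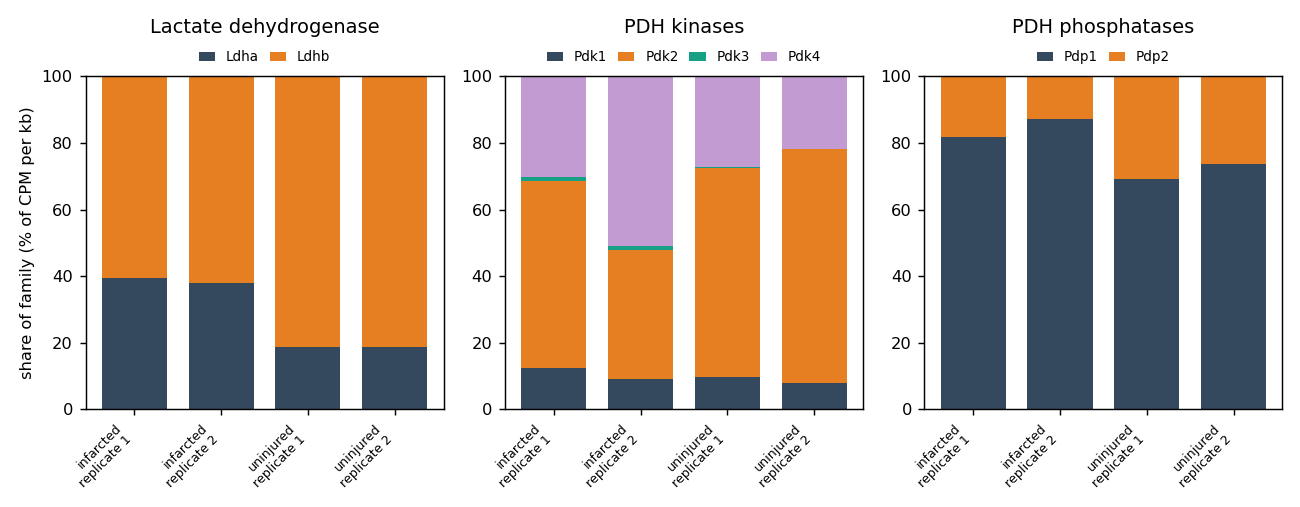
Share of each gene in the summed CPM per kilobase of its family, in percent, 1 bar per library with infarcted left of uninjured. Ldha takes 39.4% and 38.0% of lactate dehydrogenase in infarcted and 18.7% and 18.8% in uninjured libraries, Pdk4 takes 51.0% of the kinases in infarcted replicate 2, and Pdp2 takes a smaller part of the phosphatases in both infarcted libraries.

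Of the lactate transporters, the scarce Slc16a3 rose and the abundant Slc16a1 was not called. Slc16a3 (chr11:120948480-120960868, plus strand) encodes MCT4, the transporter through which glycolytic cells release lactate. It had 8.98 and 8.70 CPM in infarcted libraries, against 0.898 and 1.13 CPM in uninjured ones, from 449 and 365 reads against 43 and 71 reads. Both infarcted libraries stood far above both uninjured ones, and the replicates of each group were close. The means were 8.84 ± 0.196 CPM in infarcted and 1.01 ± 0.165 CPM in uninjured hearts (SD, n = 2 each). The log2 fold change was 3.11 ± 0.27 (8.66-fold higher; edgeR adjusted p = 7.9e-06), and 98.1% of all genes tested had a lower one. Slc16a3 was called in each of the 17 alternatives, with log2 fold changes from 2.93 to 3.46 and an adjusted p of 0.0436 without uninjured replicate 2.

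Slc16a1 (chr3:104638668-104658462, plus strand) encodes MCT1, the widespread transporter that takes lactate up into cardiomyocytes. It had 174 and 184 CPM in infarcted libraries and 186 and 172 CPM in uninjured ones. The groups overlapped and the log2 fold change was 0.00 ± 0.20 (edgeR adjusted p = 0.996). With library totals as the scale, which moves the median of all genes from 0.02 to 0.36, it was 0.35, near that median. Slc16a1 remained the main transporter transcript of the pair: Slc16a3 made up 5.01% and 4.61% of their summed CPM per kb in infarcted libraries, against 0.49% and 0.668% in uninjured ones. The log2 ratio of Slc16a3 to Slc16a1 differed by 3.13 (8.78-fold; exact permutation p = 0.3333).

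Macrophages and fibroblasts, whose marker sums were higher in both infarcted libraries, can also express MCT4 and MCT1. Their part in the Slc16a3 values was not tested.

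Both subunits of the mitochondrial pyruvate carrier, which works as a heterodimer of MPC1 and MPC2, fell. Mpc2 (chr1:165460637-165481214, plus strand) had 73.0 and 66.7 CPM in infarcted libraries, against 140 and 211 CPM in uninjured ones. Its infarcted libraries were close together and below both uninjured ones, which differed from each other. This gave a log2 fold change of -1.33 ± 0.23 (2.52-fold lower; edgeR adjusted p = 0.000859), and 2.45% of all genes tested had a lower one. Leaving out uninjured replicate 2 gave -1.01 (edgeR adjusted p = 0.055).

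Mpc1 (chr17:8282904-8297661, plus strand) had 150 and 120 CPM in infarcted libraries, against 219 and 285 CPM in uninjured ones. The groups did not overlap, but the pairs were spread more widely than for Slc16a3. Mpc1 had a log2 fold change of -0.91 ± 0.22 (1.87-fold lower; edgeR adjusted p = 0.00722). The call of Mpc1 was lost in edgeR without infarcted replicate 2 (-0.78), without uninjured replicate 2 (-0.71) and with library totals as the scale (-0.57, adjusted p = 0.0535). The call was lost as well in DESeq2 without infarcted replicate 2 (-0.76). It was also lost with the trend of fold change with transcript length removed (-0.40, adjusted p = 0.115), an alternative that bears on a transcript of 961 nt, the shortest of the 10. In all of these the sign was the same.

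The ratio of Mpc1 to Mpc2 CPM was 2.05 and 1.79 in infarcted libraries, against 1.56 and 1.35 in uninjured ones. The log2 ratio differed by 0.40 (exact permutation p = 0.3333), the smallest difference of the 7 ratios, and by 0.97 with the length trend removed. That last value rests on the longest transcripts, of 961 nt for Mpc1 and 4015 nt for Mpc2. The principal transcripts are nearly alike, at 958 and 1025 nt, and the trend was not taken with those lengths.

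The kinases of the pyruvate dehydrogenase complex, which phosphorylate its E1 subunit and switch it off, did not move together. Pdk2, the widely expressed kinase (chr11:95026258-95041354, minus strand), had 234 and 213 CPM in infarcted libraries, against 394 and 546 CPM in uninjured ones. Both infarcted libraries were below both uninjured ones. Pdk2 had a log2 fold change of -1.07 ± 0.23 (2.11-fold lower; edgeR adjusted p = 0.00356). Its value without uninjured replicate 2 was -0.83 (edgeR adjusted p = 0.0669).

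Pdk4 (chr6:5483351-5496309, minus strand), the kinase induced by fasting and fatty acids, had 196 and 433 CPM in infarcted libraries and 267 and 262 CPM in uninjured ones. Infarcted replicate 1 was the lowest of the 4 libraries and infarcted replicate 2 the highest, so the mean of 314 ± 168 CPM in infarcted hearts, against 264 ± 3.16 CPM in uninjured ones (SD, n = 2 each), describes neither mouse. The log2 fold change was 0.25 ± 0.34 (edgeR adjusted p = 0.611). It was 0.63 without infarcted replicate 1 (adjusted p = 0.143) and -0.46 without infarcted replicate 2 (adjusted p = 0.337). Infarcted replicate 2 also had the highest sum of atrial markers, at 2009 CPM against 295 CPM in infarcted replicate 1, with 88.8 and 49.5 CPM in the uninjured libraries. Whether that has a part in the Pdk4 value, or in the values of the other genes in that library, was not tested.

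Pdk1 (chr2:71873224-71903858, plus strand), the kinase known as a target of hypoxia-inducible factor, had 119 and 115 CPM in infarcted libraries and 140 and 143 CPM in uninjured ones. The groups did not overlap, and the replicates were close, but the log2 fold change of -0.27 ± 0.19 was not called (edgeR adjusted p = 0.3). It was called lower with the length trend removed (-0.47, adjusted p = 0.0472) and was 0.08 with library totals as the scale.

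Per kilobase, Pdk2 was the main kinase transcript in 3 of the 4 libraries. It made up 56.2% and 38.9% of the summed CPM per kb of the 4 kinases in infarcted libraries, against 62.8% and 70.2% in uninjured ones. Pdk4 made up 30.3% and 51.0% in infarcted libraries and 27.3% and 21.7% in uninjured ones, and so led in infarcted replicate 2 alone. Pdk1 stayed between 7.94% and 12.4% in all libraries. The kinase sum was 185 and 244 CPM per kb in infarcted libraries, against 280 and 346 CPM per kb in uninjured ones. The ratio of Pdk4 to Pdk2 CPM was higher in infarcted hearts by 2.29-fold and that of Pdk1 to Pdk2 by 1.73-fold, each with an exact permutation p of 0.3333, and the log2 difference of the first was 0.55 without infarcted replicate 2.

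Pdp2, which encodes a catalytic subunit of the phosphatase that reactivates the complex (chr8:104591451-104599026, plus strand), had the lowest log2 fold change of the 10. It had 6.56 and 4.94 CPM in infarcted libraries, against 23.4 and 17.3 CPM in uninjured ones, from 328 and 207 reads against 1123 and 1084 reads. The groups were well apart, with both infarcted libraries far below both uninjured ones. The means were 5.75 ± 1.15 CPM in infarcted and 20.4 ± 4.37 CPM in uninjured hearts (SD, n = 2 each). The log2 fold change was -1.82 ± 0.24 (3.53-fold lower; edgeR adjusted p = 0.000166), and 0.77% of all genes tested had a lower one. With uninjured replicate 2 left out it was -2.03 (edgeR adjusted p = 0.0539).

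Pdp1, the other catalytic subunit and the more abundant transcript, fell less, with 21.9 and 24.7 CPM in infarcted libraries against 39.1 and 35.9 CPM in uninjured ones (log2 fold change -0.69 ± 0.19, edgeR adjusted p = 0.0139). Pdp2 made up 18.1% and 12.9% of the summed CPM per kb of the pair in infarcted libraries, against 30.7% and 26.2% in uninjured ones. The log2 ratio of Pdp2 to Pdp1 differed by -1.14 (exact permutation p = 0.3333). The ratio of Pdk4 to Pdp2 CPM, an inducible kinase set against a phosphatase, was 29.8 and 87.7 in infarcted libraries, against 11.4 and 15.2 in uninjured ones. Both infarcted ratios were higher, and they differed from each other more than the uninjured ones did, as Pdk4 did. The log2 ratio differed by 1.96 (exact permutation p = 0.3333), and by 1.18 without infarcted replicate 2.

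**Figure D3:**
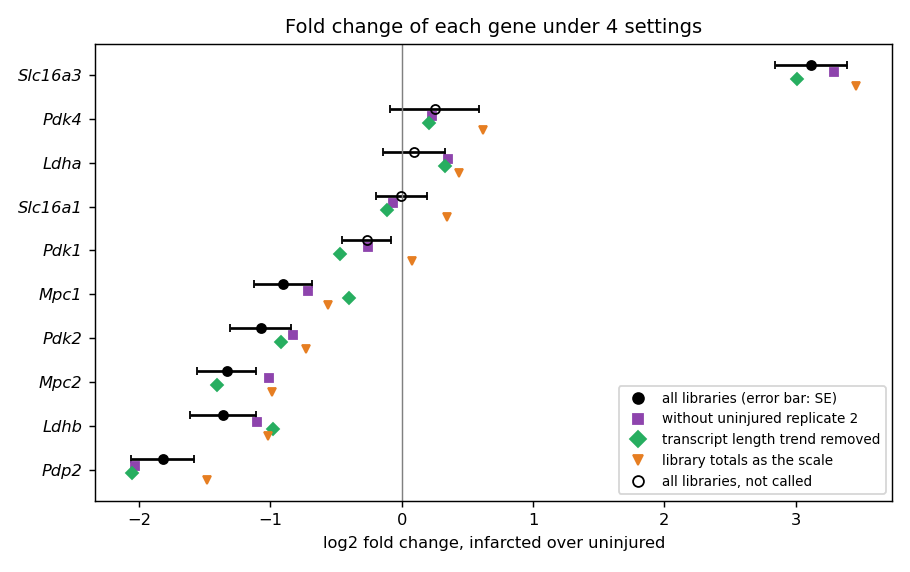
Log2 fold change of each gene, infarcted over uninjured, with all libraries (circles with SE, filled where called) and under 3 other settings: without uninjured replicate 2, with the transcript length trend removed and with library totals as the scale. Slc16a3 stays above 2.93 and Ldhb, Mpc2 and Pdp2 stay below -0.97, while Ldha and Slc16a1 lie between -0.11 and 0.44 and Mpc1 moves to -0.40 with the length trend removed.

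Set beside each other per kilobase of the longest transcript, the genes spanned more than the range of any fold change. In infarcted hearts the mean levels ran from Ldhb at 466 ± 19.2 CPM per kb, through Ldha at 295 ± 24.5, Mpc1 at 140 ± 22.2, Pdk2 at 99.4 ± 6.63, Pdk4 at 90.2 ± 48.2 and Slc16a1 at 40.4 ± 1.58, to Pdk1 at 22.6 ± 0.571, Mpc2 at 17.4 ± 1.11, Slc16a3 at 2.04 ± 0.0453 and Pdp2 at 1.01 ± 0.202 CPM per kb (SD, n = 2). Of these neighbours, Pdk2 and Pdk4 did not differ beyond their spread. In uninjured hearts the order was Ldhb at 1196 ± 283 CPM per kb, Ldha at 277 ± 66.5, Mpc1 at 262 ± 48.6, Pdk2 at 209 ± 47.6, Pdk4 at 75.9 ± 0.907, Mpc2 at 43.8 ± 12.5, Slc16a1 at 40.4 ± 2.36, Pdk1 at 27.2 ± 0.414, Pdp2 at 3.58 ± 0.768 and Slc16a3 at 0.234 ± 0.0380 CPM per kb. There Ldha, Mpc1 and Pdk2 did not differ beyond their spread, nor did Mpc2 and Slc16a1. Slc16a3 and Pdp2 thus changed places at the bottom of the order. The levels of several genes depend on the length used. With the principal transcript of 1025 nt in place of the longest one of 4015 nt, the level of Mpc2 was 68.2 CPM per kb in infarcted and 172 CPM per kb in uninjured hearts. With the summed length of all exons, Mpc1 was at 64.7 ± 10.2 CPM per kb in infarcted hearts, below Pdk4 and Pdk2, and at 121 ± 22.5 in uninjured ones, below Pdk2. Pdk4 and Pdk2 were then at 89.5 ± 47.8 and 70.6 ± 4.71 in infarcted hearts, and Pdk2 at 149 ± 33.8 in uninjured ones. Mpc1 did not differ from these beyond the spread. On that length Ldha was at 162 ± 13.5 CPM per kb in infarcted and 152 ± 36.5 in uninjured hearts, and stayed next to Ldhb in the order.

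Of 25 other genes of lactate and pyruvate handling in the table, 21 passed the filter, and Ldhc, Pklr, Slc5a8 and Slc5a12 had at most 10 counts in any library. Of the 21, 2 were called higher and 13 lower, with a median log2 fold change of -0.68, beside the 33.0% called and the median of 0.02 over all genes tested. With library totals as the scale 3 were called higher and 6 lower, and without uninjured replicate 2 edgeR called 0, with 14 under an unadjusted p of 0.05, whereas DESeq2 called 2 higher and 8 lower.

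The complex that the kinases and Pdp2 act on fell in 4 of its 5 subunits tested. Pdhb, the E1 beta subunit, had 279 and 234 CPM in infarcted libraries against 464 and 583 CPM in uninjured ones, a log2 fold change of -1.03 ± 0.23 (edgeR adjusted p = 0.00406). Dld, the E3 subunit, Dlat, the E2 subunit, and Pdhx, which binds E3, fell by 0.79, 0.70 and 0.60 on the log2 scale (adjusted p = 0.0112, 0.0197 and 0.0309). Pdha1, which carries the sites that the kinases phosphorylate, had 545 and 548 CPM in infarcted libraries against 774 and 714 CPM in uninjured ones and was not called (log2 fold change -0.44 ± 0.22, adjusted p = 0.137). Pdpr, the regulatory subunit of the phosphatase, had 34.6 and 44.2 CPM in infarcted and 48.8 and 32.0 CPM in uninjured libraries (-0.04 ± 0.23, adjusted p = 0.919). Pdk3, the remaining kinase, was scarce but higher, with 4.18 and 5.39 CPM in infarcted libraries against 1.57 and 1.31 CPM in uninjured ones (1.74 ± 0.30, adjusted p = 0.00101).

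The chaperones that bring monocarboxylate transporters to the membrane went opposite ways. Emb, embigin, had 4.56 and 8.85 CPM in infarcted libraries, against 0.668 and 0.605 CPM in uninjured ones (log2 fold change 3.39 ± 0.37, edgeR adjusted p = 4.67e-05). Bsg, basigin, the partner of MCT1 and MCT4, had 588 and 585 CPM in infarcted libraries, against 888 and 1136 CPM in uninjured ones (-0.79 ± 0.23, adjusted p = 0.0197). Slc16a7, which encodes the high-affinity transporter MCT2, fell to 2.20 and 2.43 CPM in infarcted libraries, against 5.80 and 6.23 CPM in uninjured ones (-1.38 ± 0.26, adjusted p = 0.00176).

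Of the other enzymes listed, those with the smallest p were lower. Gpt2 and Gpt, the mitochondrial and cytosolic alanine aminotransferases, had log2 fold changes of -1.55 ± 0.21 and -1.34 ± 0.23 (edgeR adjusted p = 0.000198 and 0.000869), and Ldhd, the mitochondrial D-lactate dehydrogenase, -1.25 ± 0.21 (adjusted p = 0.000784). Pkm, pyruvate kinase, which makes the pyruvate, had 897 and 756 CPM in infarcted and 941 and 1279 CPM in uninjured libraries and was not called (-0.43 ± 0.24, adjusted p = 0.201). Pcx, pyruvate carboxylase, and Me2, a malic enzyme, were not called either, at -0.39 ± 0.20 and 0.38 ± 0.22 (edgeR adjusted p = 0.155 and 0.195). The other malic enzymes, Me1 and Me3, were called lower at -0.58 ± 0.19 and -0.68 ± 0.22 (edgeR adjusted p = 0.0315 and 0.0311).

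**Figure D4:**
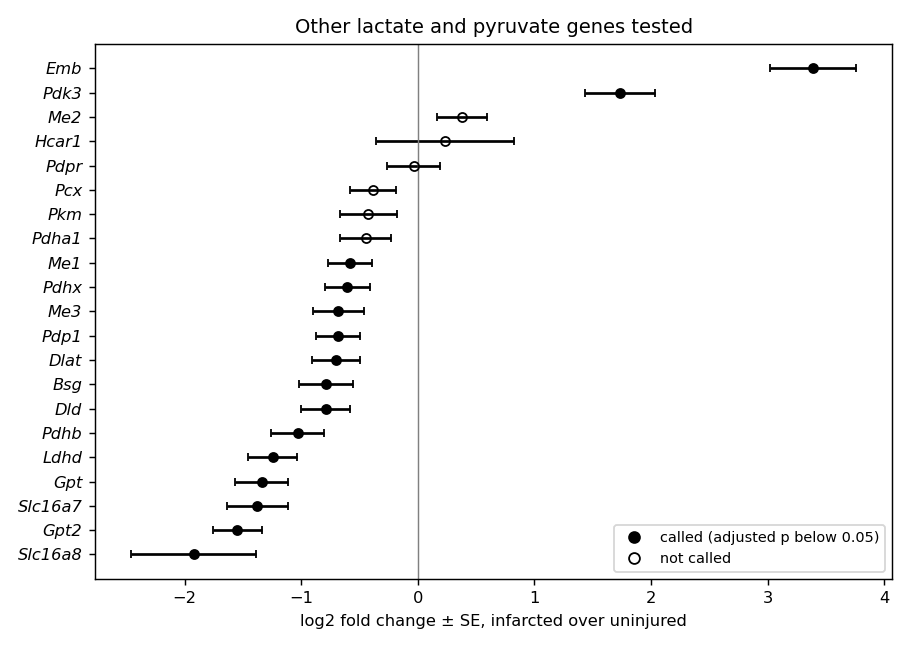
Log2 fold change with SE, infarcted over uninjured, of the 21 other lactate and pyruvate genes tested, filled where called. Emb and Pdk3 stand on the higher side, 13 genes are called on the lower side, and Pdha1, Pkm and Pdpr are among those not called.

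The second deposited table gave, per library, the percent inclusion of exons and splice sites with the reads behind it. It listed 33 events in 8 of the 10 genes, of which 16 in 5 genes had at least 10 reads in each library. Of these 16, 12 were at 0 or 100% in every library, and the rarer form reached at most 4% in any. Only 2 events had enough reads of both forms to be tested, both exons of Pdk1: one of 111 nt at chr2:71733746-71733856 and one of 114 nt at chr2:71735704-71735817 (mm9). Both were at 100% in the infarcted libraries and at 96.2% and 96.0% in uninjured replicate 1, from 148 and 141 inclusion and 6 exclusion reads each, with 100% in uninjured replicate 2. Neither was called in edgeR's test of the form-by-group interaction (adjusted p = 0.797 and 0.791). Over all 8083 events that test called 0, which is 0% of them, with 530 at an unadjusted p below 0.05, and limma on the logit called 0, with 598.

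Slc16a3 had too few reads in uninjured libraries for a comparison of its exons. Its 95-nt exon at chr11:120815488-120815582 (mm9) was included at 83.8% and 77.9% in infarcted libraries, from 19 and 12 inclusion reads and 4 exclusion reads each, and had 0 and 2 reads in the uninjured ones.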

How the data were processed

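The authors deposited a table of raw, unnormalized read counts by Ensembl gene and a table of percent inclusion per splicing event with the corrected reads behind it. Per the labels' protocols, libraries were sequenced as single-end 50-nt reads; mm9 is named in the submitters' processing notes. For the aligner, the counter, the strand setting and multiply mapped reads: not given in the sources used here. Overlapping antisense transcripts therefore cannot be told apart. The series' design text speaks of 2 mice per group. The edgeR p-values and SE rest on the spread between these 4 libraries, drawn toward a trend over all genes tested.

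Symbols came from GENCODE M21 (GRCm38), which matched 20450 of 21552 identifiers. Counts were tested in edgeR 4.0.16 under R 4.3.3 (filterByExpr, TMM, robust quasi-likelihood fit, Benjamini-Hochberg adjustment over 13905 genes), with a common biological coefficient of variation of 19.3% and 2 residual degrees of freedom. The SE is the absolute log2 fold change over the root of the F statistic. Splicing events needed at least 10 reads in each library, reads were rounded, and the first site of an event with several was left out because its sites share reads. Alternatives used other scalings and filters, DESeq2 1.42.0, limma 3.58.1 (voom), the replicate number as a block, a lowess trend with transcript length, and each library left out. Leaving 1 library in a group assumes that it varies like the other group.

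The 10 genes and all gene lists were chosen with earlier results of these data known. The text names all 10 genes, the pyruvate dehydrogenase subunits, Pdk3, Pdp1, Pdpr, Bsg and Pkm. It also names up to 5 further genes of each list with the smallest p. Gapdh, Pcx, Me1, Me2, Me3, Pfkfb3, Kdm3a, Cpt1a and the genes named for the filter were named after their values were seen. The scripts were tested on simulated data.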

Additional observations from a re-analysis of the deposited data

How the results depend on the processing

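Over the 17 alternatives, Slc16a3 was called in all, Ldhb, Mpc2, Pdk2 and Pdp2 in 16 each and Mpc1 in 12, always with the same sign; Ldha, Slc16a1 and Pdk4 were called in none and Pdk1 in 1. Most edgeR calls were lost when uninjured replicate 2 was left out. Leaving out 1 library at a time, edgeR called 110 to 3798 genes (110 without uninjured replicate 2), 1 to 6 of the 10 genes, 0 to 13 other lactate and pyruvate genes, 0 to 4 regulators, 0 to 6 hypoxia response genes (4 without infarcted replicate 2) and 0 to 17 PPAR-alpha response genes, the lowest each time without uninjured replicate 2. DESeq2 with a library left out, added after the data were seen, called 2507, 2130 and 1772 genes without infarcted replicate 1, infarcted replicate 2 and uninjured replicate 2. It called 9 other lactate and pyruvate genes without infarcted replicate 2, 2 regulators and 4 hypoxia response genes without infarcted replicate 1, and 1 and 3 without uninjured replicate 2. With library totals as the scale, 4386 genes were called higher and 786 lower, and the lists called 9 other lactate and pyruvate genes and 11 PPAR-alpha response genes. The cause of these shifts was not tested, beyond the fewer libraries. Same-numbered libraries deviated together with a correlation of 0.108 over only 2 pairs, which does not show pairing; with the replicate block 5290 genes and 6 of the 10 were called. No splicing event was called under any setting tried. Read counts were lowest for Slc16a3 among the 10 genes, at 43 and 71 in the uninjured libraries.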

Other observations

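Regulators and neighbouring programs of these genes were read from the same fit, as counts beside the 33.0% called over all genes tested. Of 15 regulators, 3 were higher and 1 lower in infarcted hearts, a share called that did not exceed that of all genes tested. Myc, a transcription factor that can act on Ldha and Slc16a1, had a log2 fold change of 2.09 ± 0.24 (edgeR adjusted p = 5.89e-05). Hif1a, the oxygen-sensitive factor, and Arnt, its partner, were at 0.92 ± 0.22 and 0.64 ± 0.20 (adjusted p = 0.0066 and 0.0286), and Esrra, an activator of mitochondrial genes, at -0.87 ± 0.20 (adjusted p = 0.00605). These are transcript levels, and the factors are also controlled at the protein. With library totals as the scale 4 regulators were called higher and 0 lower. In the fits that omit uninjured replicate 2 edgeR called 0 regulators, with 6 under an unadjusted p of 0.05, and DESeq2 called 1.

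The share of the 24 hypoxia response genes called in either direction did not exceed the 33.0% over all genes tested. Of the 24, 5 were higher and 2 lower, with a median log2 fold change of 0.22. That balance was not stable: edgeR called 3 higher and 4 lower with the length trend removed, 2 and 3 without uninjured replicate 1, and 3 and 3 without infarcted replicate 1, where the median was -0.16. Car9, a carbonic anhydrase, had the highest value among the called ones at 2.61 ± 0.47 (edgeR adjusted p = 0.00135). It had 80 and 46 reads in infarcted libraries and only 12 in each uninjured one. The others called higher were Eno1, Pfkfb3, P4ha1 and Kdm3a, at 0.894, 0.804, 0.646 and 0.595 (edgeR adjusted p = 0.00834, 0.0474, 0.0212 and 0.0338). Of the 50-nt windows of Eno1, 72.2% are shared with other genes. Higd1a and Egln1, an inner-membrane protein and an oxygen-sensing hydroxylase, were lower at -1.05 ± 0.19 and -0.94 ± 0.22 (edgeR adjusted p = 0.00146 and 0.00502). Without uninjured replicate 2 edgeR called 0, with 7 under an unadjusted p of 0.05, whereas DESeq2 called 1 higher and 2 lower. Slc16a3 and Car9 were higher while Ldha and Pdk1 were not called. Whether hypoxia has a part in any of these values was not tested.

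Of 22 PPAR-alpha response genes tested, 0 were higher and 17 lower, with a median of -0.95. Ech1 and Mlycd, enzymes of fatty acid oxidation and malonyl-CoA breakdown, were at -1.54 ± 0.27 and -1.55 ± 0.25 (adjusted p = 0.00104 and 0.000901), and Acot1, Hadhb and Acadm at -2.47 ± 0.44, -1.18 ± 0.24 and -1.13 ± 0.23 (adjusted p = 0.00222, 0.0024 and 0.00246). Without uninjured replicate 2 edgeR called 0, with 18 under an unadjusted p of 0.05, whereas DESeq2 called 1 higher and 11 lower. Without infarcted replicate 1 edgeR called 3 higher and 13 lower. Cpt1a, which was picked after its values were seen, had 37.1 and 63.6 CPM in infarcted replicates 1 and 2, against 33.7 and 35.8 CPM in uninjured ones, and was not called (adjusted p = 0.108).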
